A study of Mus musculus with 20 samples.

Results

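In untreated mouse macrophages 9643 peaks of p65 were called, and 3258 of them (33.8%) overlapped no p65 peak in any of the 4 libraries made after lipopolysaccharide (LPS). These 3258 peaks are the sites described here. They were chosen from the p65 list of untreated wild-type (WT) cells as the peaks that share not even 1 bp with a p65 peak of WT or knockout (KO) cells given LPS for 30 min or 8 h; the other 6385 basal peaks, called again in at least 1 of those lists, served for comparison. Membership is therefore set by peak calls in 5 lists, and values from those lists are given as a description only. The 12 peak lists of the whole series merge into 96700 regions.

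The cells were bone-marrow-derived macrophages, differentiated from bone marrow with M-CSF and lightly fixed before CUT&RUN, in which an antibody directs a nuclease to cut out the DNA around its target. The WT cells are C65BL6 as spelled in the study's design text, which names the KO as NOS1, while the study's title is about SOCS1; the labels say no more of the KO allele, and give no age. Cells of both genotypes were studied untreated (control) and after 30 min or 8 h with LPS at 100 ng/mL. For each genotype and treatment there was 1 library with an antibody against p65, 1 against SOCS1 and 1 with normal rabbit IgG. With 1 library per group no difference between groups could be tested. Every interval below is an exact 95% binomial interval and covers counting error only.

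p65, encoded by Rela, is an NF-κB subunit with a transactivation domain. In resting macrophages most of it is held in the cytoplasm by IκB proteins such as the product of Nfkbia. LPS acts through TLR4 and MyD88 to have IκB degraded, p65 enters the nucleus, and it binds κB motifs at cytokine, chemokine and feedback inhibitor genes. SOCS1, the other target mapped here, is best known as an inhibitor of cytokine receptor signalling.

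Only where a site lies over or directly before a gene's start is its sequence at hand. Upstream DNA under 4 such sites is shown, each stretch lying in no other annotated gene. They are shown because the stretches differ in how many matches they hold to the κB pattern, here GGG and CC with any 5 bases between. The Septin7 site was among the 10 sites with the highest SOCS1 score, and Ccl9, Dusp2 and Runx1 belong to the gene lists described further on. Each stretch is the part of the peak within the 250 bases before the start site, read 5′ to 3′ on the gene's strand. The Ccl9 and Runx1 sites reach farther upstream than their stretches. Sequences are from RefSeq for GRCm38.p6 (the mm10 build), and capitals mark this pattern on either strand. Matches are counted in the stretch alone, not in the rest of the site. Septin7 (chr9:25251771-25251990, plus strand) held 2 matches, which began 139 and 106 bases before the start site. Ccl9 (chr11:83578637-83578886, minus strand) held 1, at 35 bases. Dusp2 (chr2:127335942-127336158, plus strand) held 4 in 2 overlapping pairs, the first at 131 and 130 bases and the second at 47 and 46. Runx1 (chr16:92826079-92826324, minus strand) held none. The Runx1 site ended just before the start site and did not cover it, while the other sites shown covered theirs.
Septin7: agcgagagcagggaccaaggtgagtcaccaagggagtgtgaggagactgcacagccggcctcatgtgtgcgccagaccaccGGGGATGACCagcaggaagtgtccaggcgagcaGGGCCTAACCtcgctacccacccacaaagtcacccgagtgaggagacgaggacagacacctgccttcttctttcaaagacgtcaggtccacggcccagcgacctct
Ccl9: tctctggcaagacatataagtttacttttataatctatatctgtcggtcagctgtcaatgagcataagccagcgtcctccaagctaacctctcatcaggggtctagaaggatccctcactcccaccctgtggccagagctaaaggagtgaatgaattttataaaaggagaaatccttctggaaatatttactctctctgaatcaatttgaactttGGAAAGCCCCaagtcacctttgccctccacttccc
Dusp2: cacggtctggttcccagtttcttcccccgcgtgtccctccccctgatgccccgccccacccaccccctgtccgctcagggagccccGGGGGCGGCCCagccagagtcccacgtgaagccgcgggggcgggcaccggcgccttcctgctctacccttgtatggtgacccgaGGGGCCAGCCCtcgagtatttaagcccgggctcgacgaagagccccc
Runx1: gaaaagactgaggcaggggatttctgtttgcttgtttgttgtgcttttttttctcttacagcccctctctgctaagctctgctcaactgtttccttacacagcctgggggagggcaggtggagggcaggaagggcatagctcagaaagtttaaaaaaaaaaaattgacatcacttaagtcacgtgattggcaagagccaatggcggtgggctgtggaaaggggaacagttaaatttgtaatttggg

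The sites were weak peaks in the list they came from. Their median score, the caller's tag-based value for a peak, was 10 (quartiles 9.5 and 12, highest 51.5), against 13 (10.5 and 17, highest 114) for the basal sites called again. Of the sites, 53.6% had a score of at most 10, close to the lowest callable score of 9, against 19.8% of the others; 2.67% against 14.1% scored above 20. The tag count scaled to 10000000 tags had a median of 16.9 in the sites and 20.2 in the others. The lowest IgG count the caller writes, 0.5, was found at 59.0% of the sites and 34.8% of the others; since a peak needs a 4-fold excess over IgG, peaks of low score can be listed only where IgG is low. Enrichment over the surrounding 10 kb was at least 8-fold at 48.6% of the sites and 54.5% of the others. The share of basal peaks that belong to the set fell along the score, from 61.6% of peaks scoring 9 or 9.5 through 33.2% at 11 to 12 and 16% at 15.5 to 20 to 8.80% above 20. The plot of scores shows how far apart the groups lie.

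**Figure D1:**
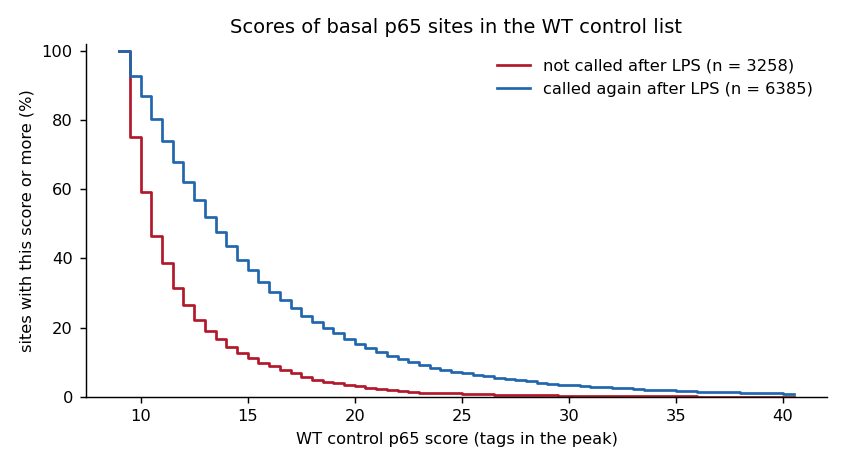
Share of sites (%, vertical axis) whose score in the p65 WT control list, in tags, is at or above the value on the horizontal axis, for sites not called after LPS and basal sites called again. The curve of the sites not called after LPS drops faster: their median is 10 against 13, and 2.67% against 14.1% lie above 20.

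A minority were strong. The highest score, 51.5, belonged to a site outside genes at chr10:37236325-37236683, which was also called in p65 KO control cells with a score of 43.5 and in no SOCS1 list. The second, at chr11:88115330-88115688, lies inside Cuedc1, which encodes a CUE-domain protein; it scored 48.5 in WT and 43 in KO control cells, was 158-fold above IgG, and was again in no SOCS1 list. The site 6660 bp from Sec14l1 (chr11:117108329-117108687) scored 35.5 and 29. These 3 sites had the highest scores of the set in WT cells and, with 1 tie at 29, in KO control cells. Next came a site outside genes at chr2:35496304-35496662 with 34, called in none of the 7 lists outside the rule, and a site inside Rreb1, a zinc-finger repressor of Ras-responsive genes, with 32.5.

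Among the other sites in the 20 highest scores, a site inside Lpxn (leupaxin, an adhesion adaptor), 5032 bp from that gene's end and 4796 bp from Zfp91, scored 31, and a site 10113 bp from the start of Ctsd, which encodes the lysosomal protease cathepsin D, scored 30. Sites inside Vav1, a guanine nucleotide exchange factor of immune receptor signalling, and Ehd1, an endocytic recycling ATPase, each scored 29.5. The site at the start of Rarg, the retinoic acid receptor γ gene, scored 28.5. A site 249 bp from the start of Rprd2, which encodes an RNA polymerase II-associated protein, scored 29, and a site inside Slfn2, a Schlafen gene of lymphocytes and macrophages, 27.5. Of these 7 sites, those of Lpxn and Vav1 were called in none of the other 7 lists, and that of Rarg in 5.

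Many of the sites had an LPS peak as a close neighbour. The median distance from a site to the nearest p65 peak called after LPS was 2072 bp (quartiles 282 and 12362), with 10.0% of sites closer than 100 bp, 31.6% closer than 500 bp and 72.3% closer than 10 kb. By list, 20.2% of sites lay within 500 bp of a WT 30 min peak, 18.4% of a WT 8 h peak, 23.0% of a KO 30 min peak and 12.1% of a KO 8 h peak, in lists of 36030, 31007, 43124 and 25811 peaks. The neighbours within 1 kb were strong: their median scores were 37, 24, 45 and 40.5 in these lists, against 25.5, 20, 32 and 29 over all peaks of the list.

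**Figure D2:**
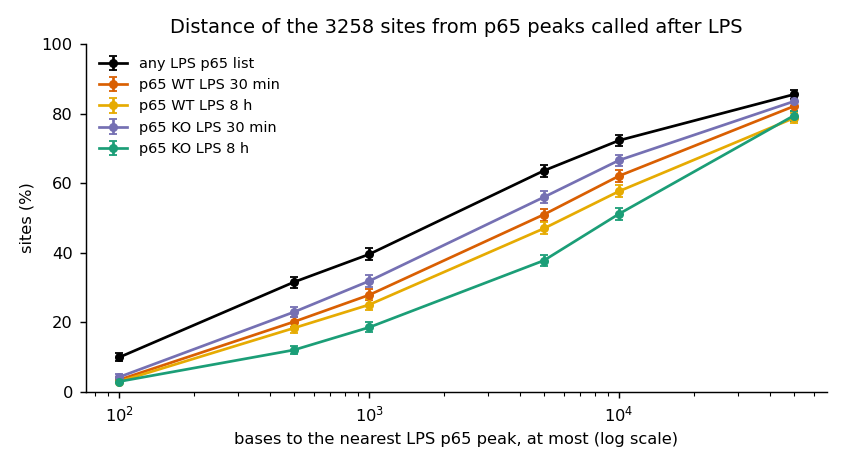
Share of the 3258 sites (%, with exact 95% intervals) that lie within a given number of bases, on a log scale, of the nearest p65 peak in each LPS list and in any of them. At 1 kb the share is 39.6% for any list and 18.6% to 31.9% for single lists.

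The caller does not place 2 peaks of a list closer together than a set distance, which was 508, 478, 444 and 986 bp in the WT 30 min, WT 8 h, KO 30 min and KO 8 h lists. At 762 sites (23.4%) the centre was closer than this to the centre of a peak in at least 1 list, so that no separate peak could be placed there in that list; at 34 sites this held in all 4. The other 2496 sites lay farther from every LPS peak; their median score was 10, against 11.5 for the 762. The caller also removed, for lack of enrichment over the surrounding 10 kb, 12.1% of putative peaks in the WT control library and 28.6%, 27.8%, 28.0% and 35% in the 4 LPS libraries. It removed 41.2% for lack of enrichment over IgG in WT control and 24.1%, 13.4%, 26.9% and 20.3% after LPS. The WT control library held 7.69 M tags and the LPS libraries 13.3, 10.6, 18.4 and 11 M. The part of the caller's filters in the absence of these sites after LPS was not tested, and absence from a list does not show that p65 had left the DNA.

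Sites at the edge of the rule looked alike on both sides. The 5 just inside lay 0 to 2 bp from an LPS peak and scored 10 to 21; among them are a site 836 bp from Ptpra, a receptor tyrosine phosphatase gene, with 10.5, and a site 3193 bp from Mertk, the receptor that takes up apoptotic cells, with 12.5. The 5 just outside overlapped an LPS peak by 1 bp and scored 9 to 14.5, the highest inside Idh2, the mitochondrial isocitrate dehydrogenase gene.

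The p65 list of untreated KO cells was not used by the rule. Of the 3258 sites, 196 (6.02%, 5.22 to 6.89) were also p65 peaks there, against 26.2% (25.1 to 27.3) of the basal sites called again and 19.4% of all basal peaks. The share rose with score, and the sites stayed below the others at equal score. Among peaks scoring 9 or 9.5 the shares were 1.35% (0.804 to 2.13) and 11.3% (9.26 to 13.7), at 11 to 12 they were 6.32% and 18.3%, and above 20 they were 33.3% (23.6 to 44.3) and 49.6% (46.2 to 52.9). The intervals of the sites and of the others did not overlap in any of the 6 score classes. Most of these sites were thus called in the untreated WT library and not in the untreated KO library, in each score class. The basal sites called again were selected for a call in another p65 library. A lower share of the sites in any further list may therefore come in part from the selection, which was not tested.

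The 196 sites found in both genotypes had a median score of 13.5 in WT and 12 in KO cells, and a median scaled tag count of 21.5 and 23.1; the scaled count was higher in WT at 85 of them. Their scores ran from 9 to 51.5 in WT, and the Spearman correlation between the scores of the libraries over these 196 sites was 0.472, given as a description. Besides the 3 leading sites, the highest KO scores were 29 at a site 21077 bp from Otulinl (30 in WT), 25.5 inside Lrch4 (26.5), 25 at a site 1559 bp from the start of 1700123J17Rik (20), 24.5 inside Tnrc18 (25.5) and 24 at the start of Ing2 (23.5), whose product reads histone methylation in a deacetylase complex. At a site 2844 bp from Sec22c, a vesicle trafficking gene, the KO score was 23 and the WT score 12. When the same rule was applied to the KO control list, 3748 of its 10721 peaks (35%) overlapped no p65 peak after LPS, and 155 of these (4.14%) overlapped a site of the WT set.

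SOCS1 peaks were rare at these sites. In WT control cells 188 sites (5.77%, 4.99 to 6.63) overlapped a SOCS1 peak, against 34.7% of the basal sites called again and 24.9% of all basal peaks. After 30 min of LPS the share was 5.71% against 39.1% (27.8% of all), and after 8 h 3.04% against 34.1% (23.6%). In KO cells it was 9.55% against 42.2% in control (31.2%), 7.52% against 48.0% at 30 min (34.3%) and 4.85% against 39.8% at 8 h (28.0%). In each of the 6 SOCS1 lists and each of the 6 score classes the share was lower for the sites than for the others. Above a score of 20, for example, it was 21.8% (13.7 to 32.0) against 57.4% (54.1 to 60.7) in SOCS1 WT control and 28.7% (19.5 to 39.4) against 73.2% (70.2 to 76.0) in SOCS1 KO 30 min. In both genotypes the SOCS1 list with the smallest share was that of 8 h, for the sites, for the others and for all basal peaks alike. The p65 and SOCS1 lists of a group were called against the same IgG library, so their calls are not independent of each other. The others were also selected for a call in another p65 library, so part of the gap may come from the rule itself. How much was not tested.

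**Figure D3:**
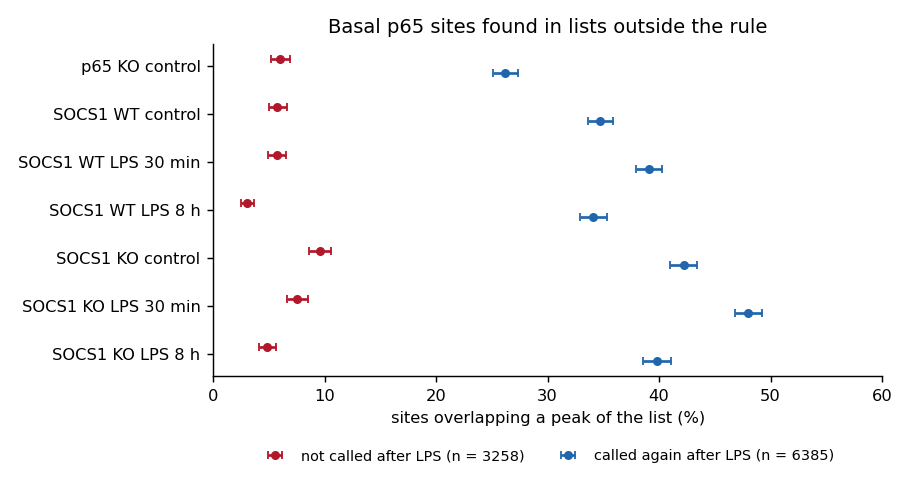
Share of sites (%, points, with exact 95% intervals) that overlap a peak of each of the 7 lists outside the rule, for the 3258 sites not called after LPS and the 6385 basal sites called again. The former lie between 3.04% and 9.55%, the latter between 26.2% and 48.0%.

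**Figure D4:**
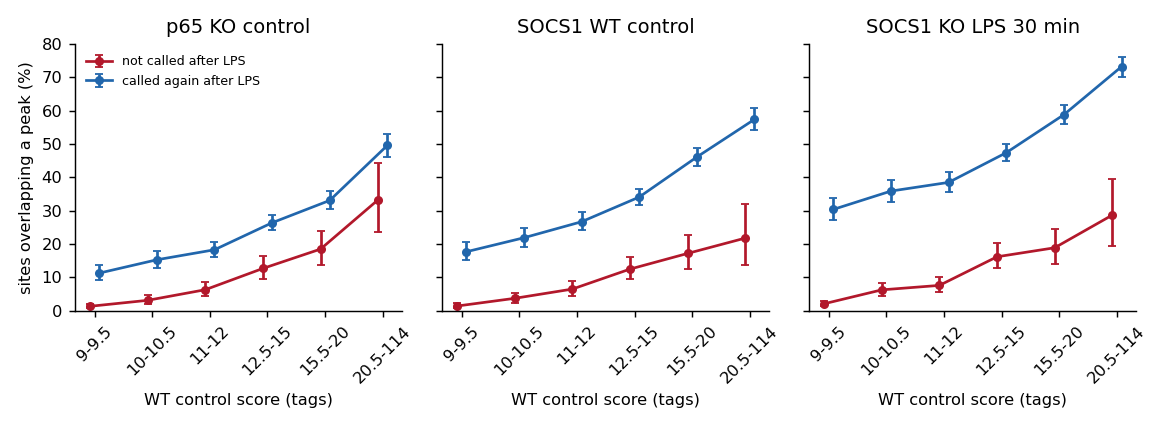
The same shares (%, with exact 95% intervals) in 6 classes of the p65 WT control score, in tags, for p65 KO control, SOCS1 WT control and SOCS1 KO 30 min. Both groups of sites rise along the score, and the sites not called after LPS lie lower in every class.

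Taking the 7 lists together, 2417 sites (74.2%) were in none of them, against 14.5% of the others and 34.7% of all basal peaks. In 3 or more lists were 4.45% of the sites, 48.4% of the others and 33.6% of all basal peaks. No site was in all 7, where the exact interval reaches up to 0.113%. A SOCS1 peak in at least 1 of the 6 lists was found at 23.4% of the sites, 83.6% of the others and 63.3% of all basal peaks. The others were selected for a call in another p65 library, so part of these gaps may come from the rule, which was not tested. Sites near an LPS peak and sites far from one differed: 49.6% of the 762 near sites were in none of the 7 lists, against 81.7% of the 2496 far ones. Sites shared by both control p65 libraries carried SOCS1 more often, with a WT control SOCS1 peak at 24.5% (18.6 to 31.1) of the 196 against 4.57% (3.86 to 5.37) of the rest. The same held for the basal sites called again, at 48.5% against 29.8%, and the 196 sites had higher scores, with a median of 13.5 against 10 for the whole set. Of the 188 sites with a SOCS1 peak in WT control cells, 18.1% also had one at 30 min and 14.4% at 8 h. The shares were 52.8% and 50.2% among the basal sites called again, and 50.1% and 47.4% among all basal peaks.

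The highest score in the SOCS1 WT control list at any of the sites was at the start of Ewsr1, an RNA-binding protein gene, where p65 scored 15 in WT and 16.5 in KO control cells, and SOCS1 scored 38.5 in WT control and 51 in WT 8 h cells. A site inside Hnrnpl, a splicing regulator gene, had a p65 score of 17.5 and SOCS1 scores of 31 in WT control, 40.5 in WT 30 min and 36, 57 and 64 in KO control, 30 min and 8 h cells. Inside Midn, which encodes a nuclear protein of proteasomal turnover, p65 scored 22.5 and SOCS1 30 in WT control and 67 in KO control; the Midn site is among 4 sites called in 6 of the 7 lists. At the Septin7 start, whose upstream sequence is shown above, p65 scored 23.5 and SOCS1 28 in WT control and 31.5 in WT 30 min cells. This site lay 6 bp from a p65 WT 30 min peak. Scores belong to their own list and are not scaled to depth, so they do not measure a change between libraries.

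By position the sites lay near gene ends less often than the other basal peaks. Within 1 kb of an end of a protein-coding gene there were 13.9% (12.7 to 15.1) of the sites and 33.4% (32.2 to 34.6) of the basal sites called again. Over all basal peaks it was 26.8%. Elsewhere inside a gene there were 51.1%, 38.8% and 43%, in the same order, and elsewhere outside genes 35%, 27.8% and 30.2%. Against RefSeq start sites, with chromosome 18 not analysed here, 14.1% of the sites and 33.8% of the others lay within 1 kb, and 4.22% and 15.2% within 250 bp. Of all basal peaks 27.1% lay within 1 kb and 11.5% within 250 bp. The others were selected for overlap with a p65 peak after LPS, and the part of that selection in these differences was not tested. In each score class fewer of the sites were near a gene end, from 7.67% against 28.7% at scores of 9 or 9.5 to 21.8% against 37.0% above 20. Over the autosomes 33.5% (32.5 to 34.4) of basal peaks belonged to the set, with 27.1% to 36.9% on single chromosomes.

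Chromosome X stood apart: 87 of its 176 basal peaks (49.4%, 41.8 to 57.1) were not called after LPS. Its basal peaks also scored lower, with a median of 10.5 against 12 on the autosomes. At scores of 9 or 9.5 the share was 78.3% (65.8 to 87.9) on chromosome X and 61.1% (59.0 to 63.2) on the autosomes, while the intervals overlapped in the 5 higher classes. None of the 87 X-linked sites was a p65 peak in KO control cells, where 3 counts would be 3.45%, against 196 of 3169 autosomal sites. Of the 87, 47 scored 9 or 9.5, a class in which 1.35% of all the sites were p65 peaks in KO control cells. The X-linked and autosomal counts were not compared at equal score.

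A site was linked to a gene where its centre lay within 10 kb of either end of the gene. Of the 3258 sites, 1490 (45.7%) had such a gene, against 59.0% of the others. They linked to 1996 of 21887 protein-coding genes (9.12%), where 28.4% of genes had any basal p65 peak. Most of these genes had p65 elsewhere after LPS: 1887 of 1996 (94.5%) had a p65 peak within 10 kb in at least 1 LPS list and 1361 (68.2%) in all 4, against 67.2% and 41.6% of all genes. At 1298 of the genes (65%) no other basal p65 peak was found. A gene that lost a basal call at 1 position thus most often had p65 called at another position in the same window. The 22 gene lists cover macrophage and LPS genes, general cell functions, housekeeping genes and markers of other cells. Of their 420 genes, 87 (20.7%) had such a site and 240 (57.1%) any basal peak. Of the genes with a basal peak, 36.2% of the listed and 32.1% of all genes had such a site. Each of the 87 had a p65 peak in at least 1 LPS list. Their 92 sites had a median score of 11.5 and a median local enrichment of 5.78-fold, against 10 and 7.81-fold over all sites, and 37.0% of them lay under 5-fold, against 14.2%.

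**Figure D5:**
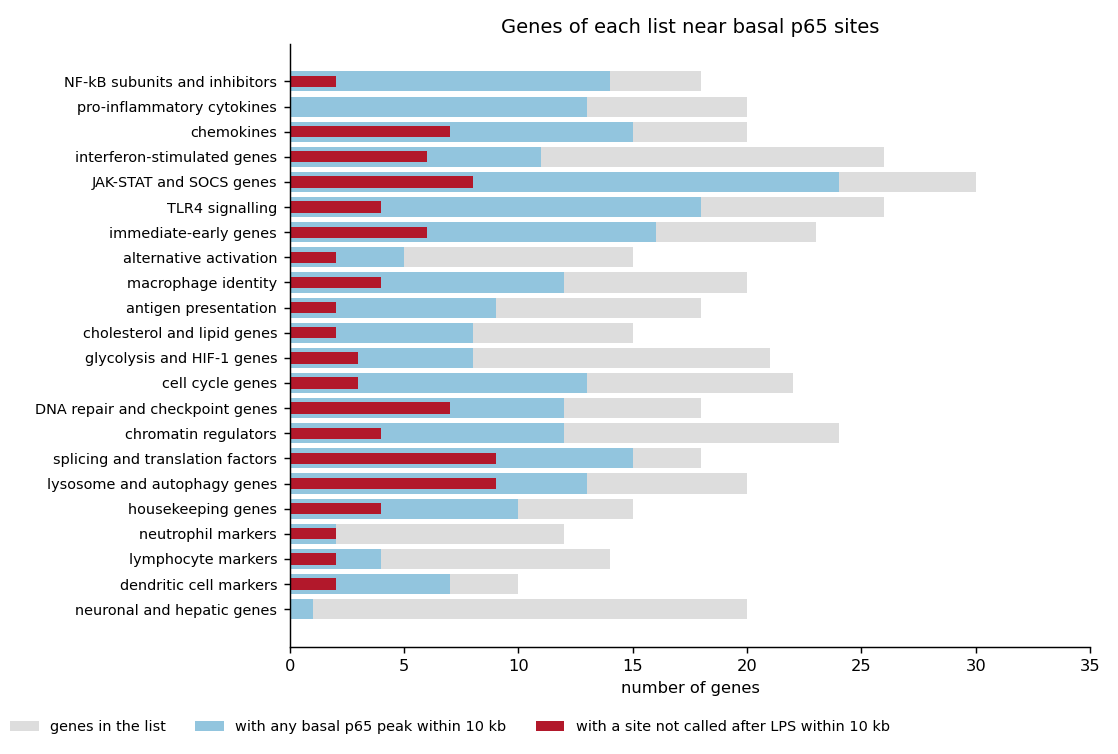
Number of genes in each of the 22 lists (grey), with any basal p65 peak within 10 kb (blue), and with a site not called after LPS within 10 kb (red). The red bars reach 9 of 18 splicing and translation factors and 9 of 20 lysosome and autophagy genes, and 0 of 20 pro-inflammatory cytokines.

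Among NF-κB subunits and inhibitors 2 of 18 genes (11.1%) had such a site, near the 9.12% of all genes, while 14 had a basal peak of any kind. Over all genes with a basal peak, 32.1% had such a site. The site 1173 bp from the start of Nfkbia, which encodes IκBα, scored 25 (chr12:55491295-55491653); it was 28.4-fold above IgG but 4.04-fold above the surrounding 10 kb, just past the required 4-fold, and lay 1231 bp from a WT 30 min peak. Nfkbia had another basal peak and p65 peaks in all 4 LPS lists. The site inside Bcl3, which encodes a nuclear IκB protein, scored 9. In the TLR4 signalling list 4 of 26 genes (15.4%) had such a site and 18 any basal peak. At Myd88, the adaptor that carries the signal from TLR4, a site 272 bp from the start scored 19 and was called for SOCS1 in WT control (15), WT 30 min (31), KO 30 min (24.5) and KO 8 h (32) cells. A site at Ikbke, an IκB kinase-related gene, scored 13, the site inside Tlr4 itself 10, and a site 8124 bp from Map3k8, the gene of the kinase Tpl2, 9.5.

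None of the 20 pro-inflammatory cytokine genes had such a site, although 13 had a basal peak, so at these genes each basal p65 peak was called again after LPS. Of the 20 chemokine genes 7 were linked and 15 had a basal peak; over all genes with a basal peak, 32.1% had such a site. At Ccrl2, a chemerin-binding receptor gene, a site 583 bp from the gene's end scored 22.5 in WT and 12 in KO control cells. A site 273 bp from an end of Ccl2, the monocyte attractant, also within 10 kb of Ccl7, scored 19 and lay 476 bp from a WT 30 min peak. The Ccl9 start site, also within 10 kb of Ccl6, scored 15.5 in WT and 18 in KO control cells and was in no SOCS1 list; its upstream sequence with a single κB match is shown above. Ccl12 had sites of 13.5 and 10, and Cxcl2, a neutrophil attractant, a site of 9 that lay 3485 bp away. Ccl2, Ccl7 and Ccl12 had p65 peaks in all 4 LPS lists, while Ccrl2, Ccl9 and Cxcl2 had none in KO 8 h.

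Of 26 interferon-stimulated genes 6 (23.1%) had such a site and 11 any basal peak. Over all genes the shares were 9.12% and 28.4%. The site 154 bp from Bst2, the gene of the virus-tethering protein tetherin, scored 15 and was in 4 SOCS1 lists, with scores of 20 in WT 8 h and 11.5, 26.5 and 30 in KO control, 30 min and 8 h. Sites at Irf1 (12), Isg20 (10) and Ifi44 (10) were next; the Ifi44 site lay 22 bp from the gene's end and 3489 bp from the nearest LPS peak. In the list of JAK-STAT and SOCS genes 8 of 30 had a site and 24 any basal peak. Stat6, the transcription factor of interleukin 4 signalling, had a site of 17.5 at 8026 bp. Socs3, a feedback inhibitor related to Socs1, had sites of 15 and 10, the stronger with SOCS1 scores of 35.5 in WT 8 h and 31 in KO 30 min cells. Ptpn6, the gene of the phosphatase SHP-1, had a site of 15, and a site 201 bp from the start of Stat3 scored 14.5.

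Immediate-early genes had 6 of 23 linked and 16 with a basal peak, where 9.12% of all genes were linked and 28.4% had a basal peak. A site 430 bp from the start of Atf3, a stress-induced repressor gene, scored 23 in WT and 14.5 in KO control cells and was 4.42-fold above its surroundings. Klf2 had a site of 13.5, Btg2, an antiproliferative gene, 11.5, and Dusp2, the gene of a nuclear MAP kinase phosphatase, 10.5. The Dusp2 site covers the start, with the 4 κB matches shown above, and lay 5 bp from a WT 8 h peak; it is in none of the other 7 lists. Of the macrophage identity genes 4 of 20 (20%) were linked and 12 had a basal peak. The centre of a site of 19 lay 184 bp from a start of Runx1, which the site did not cover. A site of 17 inside Csf1r lay 9832 bp from its end, and Mertk and Tfeb had sites of 12.5 and 9. Csf1r encodes the receptor of the M-CSF in which the cells were grown. Of 15 genes of alternative activation 2 were linked (Il4ra with 10.5 and Folr2 with 9), and of 18 of antigen presentation 2 (B2m with 13.5 at 8155 bp and H2-K1 with 11). These shares, 13.3% and 11.1%, were near that of all genes, and 5 and 9 genes of these lists had a basal peak.

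By list, the highest shares of linked genes were 50% in splicing and translation factors and 45% in lysosome and autophagy genes. DNA repair and checkpoint genes (38.9%) and chemokines (35%) followed, against 9.12% of all genes. These lists were also rich in basal peaks, which 28.4% of all genes had. Among their genes with a basal peak, 9 of 15, 9 of 13, 7 of 12 and 7 of 15 had such a site, in the same order. Over all genes with a basal peak the share was 32.1%. The order of the lists depends on the scores taken. In the upper part of the WT control list by score, 3 of 18 splicing and translation factors and 3 of 18 DNA repair genes were linked. Of lysosome and autophagy genes 5 of 20 were linked there, and of chemokines 6 of 20. Over the 22 lists together 39 of 420 genes were linked there. The share of all genes was not computed for this part of the list, so 9.12% and 32.1% are no background for these counts. Of 18 splicing and translation factor genes, 9 had such a site and 15 any basal peak. A site 465 bp from the start of Eef1a1, a translation elongation factor gene, scored 22 and was in 4 SOCS1 lists, with scores of 36 in WT 30 min, 18.5 in WT 8 h, 44 in KO 30 min and 30 in KO 8 h cells. Srsf1 (14), Srsf3 (13.5) and Sf3b1 (11.5), all of splicing, followed. Of 20 lysosome and autophagy genes, 9 were linked and 13 had any basal peak: Hexa, a hexosaminidase gene, and Mcoln1, a lysosomal calcium channel gene, had sites of 17, and Ctss, which encodes cathepsin S, and Atg7, an autophagy enzyme gene, had sites of 15. Of 18 DNA repair and checkpoint genes 7 were linked and 12 had any basal peak. Mdm2, a p53 inhibitor gene, had sites of 19 and 15 and no other basal peak. Parp1 had a site of 12.5 and Brca1 of 12.

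In the remaining lists, 4 of 24 chromatin regulators were linked, with Hdac7 at 19 and Kdm6a, on chromosome X, at 14.5 and 11. Of 15 housekeeping genes 4 were linked. Of 22 cell cycle genes 3 were linked (Ccnd1 14.5, Rb1 11.5, Cdkn1b 11), of 21 glycolysis and HIF-1 genes 3 (Hk3 and Gpi1 12, Eno1 11), and of 15 cholesterol and lipid genes 2. A basal peak of any kind lay near 12 chromatin, 10 housekeeping, 13 cell cycle, 8 glycolysis and HIF-1 and 8 cholesterol and lipid genes. The site at the start of Srebf1, the sterol regulator gene, scored 13.5 in WT and 11.5 in KO control cells. Among markers of other cells, 2 of 12 neutrophil genes (16.7%) were linked by a single site of 9 between Elane and Prtn3, 2 of 14 lymphocyte genes (14.3%; Il7r 16, Cd79a 12), 2 of 10 dendritic cell genes (20%; Siglech 11, Zbtb46 9) and 0 of 20 neuronal and hepatic genes, against 9.12% of all genes. Any basal p65 peak lay near 2, 4, 7 and 1 genes of these lists. Chromatin binding does not measure the cells present, and peaks near such markers do not identify a cell type.

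At 109 of the 1996 genes (5.46%) no p65 peak lay within 10 kb in any LPS list, and none of these is in the 22 lists. The highest site scores there were 15.5 at Nlrp1a, an inflammasome sensor gene, 13 at C130026I21Rik and Zfp316, and 12.5 at Hip1r and Zfp988. C4b, a complement gene, had 12 and Oas1h, an oligoadenylate synthetase gene, 11.5. Those of Zfp316, Zfp988 and C130026I21Rik were at genes that also had a p65 peak in KO control cells. Several sites at a gene were uncommon: 1845 genes had 1, 144 had 2 and 7 had 3. The 7 are Mup5, H1f3, Svil, Atp10a, Kif23, Ncoa4 and Otulinl, whose best scores ran from 10 to 23.

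At 94 RefSeq start sites of 89 genes a site covered at least 150 bases of the promoter window, which runs from 250 bases before to 50 after the start. The κB pattern (GGG and CC with any 5 bases between) occurred in 67.0% (56.6 to 76.4) of these windows, 64.0% (60.4 to 67.6) of the 698 windows under basal sites called again, and 51.0% of all 32544 windows. The median GC content of these windows was 61.2%, 60% and 53%, so windows under both kinds of site were richer in G and C than all windows, and the pattern is itself rich in them. The AP-1 pattern TGANTCA was in 8.51% of the windows under these sites (3.75 to 16.1), 3.58% under the others and 7.79% of all. For the ETS patterns, GAGGAAGT was in 3.19%, 3.44% and 3.11%, and CCGGAAGT in 7.45%, 11.7% and 3.92%. The interferon response pattern, GAAA and GAAA with any 2 bases between, was in 5.32%, 4.44% and 3.45%, and TTGCNNAA, a C/EBP pattern, in 7.45%, 8.88% and 10.8%. AGGGGGCGC (CTCF) was in 1.06%, 0.716% and 1.25%, and the palindromic NRF1 motif in 2.13%, 2.01% and 0.974%. Motifs were searched on both strands, GAGGAAGT and CCGGAAGT share their last letters, and for each motif the interval under these sites overlapped that under the others. No sequence of sites away from start sites was examined.

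A few sites lay at microRNA genes and were picked out after their values were seen. The hairpin of Mir142 (chr11:87756864-87756927, plus strand), whose microRNAs are typical of blood cells, lies wholly inside a site, chr11:87756832-87757190. That site scored 21.5 with an IgG count of 1, was 4.58-fold above its surroundings and 242 bp from the nearest LPS peak, and of the other 7 lists it was in SOCS1 KO 30 min alone, with 35.5. Both mature microRNAs read from this DNA are given to show what the site covers, from RefSeq for GRCm38.p6, with the seed (bases 2 to 8) in capitals, and their seeds differ.
mmu-miR-142a-5p: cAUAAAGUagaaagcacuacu
mmu-miR-142a-3p: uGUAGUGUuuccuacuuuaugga

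A site at chr8:84208038-84208396 lay 122 bp from the Mir23a hairpin, the nearest of the cluster with Mir27a and Mir24-2. It scored 20, had the lowest IgG count of 0.5, lay 3578 bp from the nearest LPS peak and was called for SOCS1 in WT 30 min cells with 20.5. A site 176 bp from Mirlet7i scored 13 and was in none of the 7 other lists.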

How the data were processed

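CUT&RUN libraries of p65, SOCS1 and IgG were made from mouse macrophages. Per the submitters' processing notes, cutadapt, Bowtie2 2.4.1 and HOMER 4.11 were used with mm10. Per the file headers, the authors ran findPeaks in its factor style on each p65 or SOCS1 library with the matching IgG library as control. It asked for an FDR of 0.001, a 4-fold excess over IgG and over 10 kb around the peak (each at a Poisson p of 0.0001), no more than 1 tag at a bp and a clonal limit of 2. Per the file headers, the signal is a tag count that the authors scaled to 10000000 tags. The score in the deposited lists is a tag count under the limit per bp without that scaling, and it can differ from the tag count of the listed peak. The deposited expected count is the number of IgG tags in a peak, with a floor of 0.5, or in 3 SOCS1 lists its total tags. The deposited ratio or fold (over IgG, surroundings or clonal expectation), the p-value and the fraction (focus ratio) are the authors' own statistics; none was recomputed, and scores and folds ranked or filtered peaks only inside their list.

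Peaks overlapping by 1 bp were counted as shared, checked on simulated intervals. Shares have exact Clopper-Pearson intervals (95%, counting error only; SciPy 1.17.1, pandas 2.3.3, Python 3.11.15). Depth was 6.93 to 18.4 M tags, and no list held a site below its lowest score (7 to 12). The 2 internal control libraries and the E. coli spike-in were not used here. Genes were 21887 protein-coding genes with a unique symbol from RefSeq (GRCm38.p6), without strand; start sites and sequences came from RefSeq promoter windows, which were not used here for chromosome 18, and no genome sequence was used. Of 421 listed genes 420 were found (Trac was not).

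The sites and the 22 gene lists were chosen with earlier results of these data known. Sites were named by rule: the 20 highest WT control scores, the 10 highest p65 KO control and SOCS1 WT control scores and folds over IgG, up to 4 per gene list by score, and 5 on each side of the overlap rule. Some sites that this rule names are not reported here. Sites shown for their sequence, microRNA genes, genes with 3 sites, genes without an LPS peak and the sites of Cxcl2 and Brca1 and the second of Ccl12 and Socs3 were added after values were seen. Alternatives were other overlap rules, stricter peaks, the upper part of the list by score, other gene windows and leaving out each LPS list.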

Additional observations from a re-analysis of the deposited data

How the results depend on the processing

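No paired analysis was possible because each group had 1 library. Under the 8 alternatives for the overlap rule, peak strength, score or left-out list that give a comparison, each of the 7 shares stayed lower in these sites than in the basal sites called again, in 56 of 56 comparisons. These comparisons are not independent, since the alternatives divide the same peaks by variants of the same rule. Because the others were selected for a call in another library, the direction may be set in part by the rule. The count of 3258 sites became 2043 with no LPS peak within 1 kb of the centre and 721 of 4359 in the upper part of the list by score, an alternative that starts from fewer peaks; with a left-out LPS list it ran from 3553 to 3662.

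The share called for p65 in KO control cells, 6.02%, was 4.16% with an overlap of the shorter peak by 50%, 4.07% among peaks at least 8-fold above local background, 17.1% in the upper part by score, 12.9% weighted to the scores of the other basal sites, 4.61% beyond the minimum peak distance (added after the data were seen) and 6.54% to 7.01% with a left-out list. The SOCS1 shares, in the order WT control, 30 min and 8 h and KO control, 30 min and 8 h, were 15.1%, 14.4%, 7.63%, 22.1%, 18.6% and 11.2% in the upper part by score, 11.1%, 10.4%, 5.76%, 16.8%, 13.9% and 8.95% weighted to the others' scores, and 3.81%, 4.25%, 1.84%, 7.21%, 4.25% and 2.56% beyond the minimum peak distance. With a left-out list they ran from 6.70% to 7.35%, 6.49% to 7.23%, 3.27% to 4.28%, 11.1% to 12%, 9.06% to 9.34% and 5.87% to 7.15%. With the 50% overlap WT control, KO control, KO 30 min and KO 8 h moved to 4.95%, 8.22%, 5.79% and 4.06%; with centres within 500 bp WT 30 min, KO 30 min and KO 8 h moved to 6.60%, 5.49% and 3.77%; at 8-fold WT 30 min, WT 8 h and KO 8 h moved to 4.73%, 2.01% and 3.63%.

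The share near a gene end was 34.7% at 5 kb, with 36.3% inside genes and 29.0% outside, and 24.4%, 48.3% and 27.3% in the upper part by score; with a left-out list they ran from 15.1% to 15.6%, 50% to 50.5% and 33.9% to 34.6%. The 87 listed genes became 173 at 50 kb and 39 in the upper part by score, and 28 of 66 counts for single lists stayed within 1.5 times. The κB share of promoter windows moved within its interval. Shares thus depend on score, and depth differs between the lists, none of which holds a site below its lowest score. Beyond the construction of each alternative, the cause was not tested.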
